A study of Mus musculus with 16 samples.

Results

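The peroxisome proliferator-activated receptors (PPARs) were followed in B16F10 tumors through 9 genes, out of 45777 listed. These were the receptors Ppara, Ppard and Pparg, their shared partner Rxra, the coactivators Ppargc1a and Ppargc1b, and the target genes Pdk4, Angptl4 and Plin2. They were selected by name, with a rule that uses no measured value, but with earlier results of these data known. B16F10 is a melanoma line of C57BL/6 mice, and its cells were grown as syngeneic allografts under the skin of lean C57BL/6J mice or of obese ob/ob mice, which lack leptin in the whole animal and in every group of that host. Tumors were collected before therapy or after etoposide (ETS), an inhibitor of topoisomerase II, which gave 4 groups of 4 tumors. For these tumors the study's methods describe no untreated group collected at the same time as the treated one. Time of growth and ETS thus cannot be told apart, and the effect of ETS here means the difference between these groups. They are lean tumors before therapy (B6_ctrl), lean tumors after ETS (B6_ETS), obese tumors before therapy (ob_ob_ctrl) and obese tumors after ETS (ob_ob_ETS). The labels give neither the age of the animals nor the dose. RNA of the whole tumor was sequenced, so host cells contribute to every value, and fewer cells of a type cannot be told apart from less RNA per cell.

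PPARs are nuclear receptors that bind fatty acids and their derivatives and act on DNA as a pair with a retinoid X receptor, at repeats of the letters AGGTCA. PPARα is best known for fatty acid oxidation in the liver, PPARδ acts in most tissues, and PPARγ is known for its role in fat cells and in macrophages. PGC-1α and PGC-1β, the products of Ppargc1a and Ppargc1b, raise the activity of these and other receptors and of mitochondrial genes. Pdk4 restrains the entry of pyruvate into the mitochondrial oxidation pathway, Angptl4 inhibits lipoprotein lipase outside the cell, and Plin2 coats lipid droplets.

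Library totals were between 47199949 and 61655287 counts per tumor. Levels of genes in this text are CPM, the counts divided by the TMM-scaled library size, and fold changes are log2 values of edgeR's quasi-likelihood test with a standard error (SE) and a Benjamini-Hochberg adjusted p over the 16209 genes with a count above 0 in every tumor. A gene was called at an adjusted p under 0.05. Of the 9 genes, 8 entered that test, and Pdk4 did not, because lean tumor 3 before therapy had no Pdk4 count. Nothing in the labels says that tumors of a group came from separate animals, and p-values measure the spread between these tumors only. The melanocyte markers, checked as the defining genes of the line, were high in every tumor, with 9 genes summing to between 11280 and 28066 CPM. Skeletal muscle markers summed to over 50 CPM in 5 tumors (lean tumors 2 and 4 before therapy, lean tumors 1 and 2 after ETS and obese tumor 2 after ETS, 56.8 to 561 CPM) and to at most 5.26 CPM in the others. For each comparison the count without these 5 tumors is given too, an alternative chosen after the data had been seen. The share of all genes called in that smaller fit is not reported here. A lower count there thus cannot be told apart from the loss of tumors, for the 9 genes and for the gene lists below.

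Sequences before the start sites are shown here for the targets Pdk4 and Plin2 and the receptor gene Ppard. Among the genes searched below, only these had bases outside the span of the gene in their windows. The choice thus does not rest on their changes with ETS, and whether the sequences bear on those changes was not tested. They are RefSeq sequences of GRCm38.p6, read 5′ to 3′ on the strand of the gene, and hold only bases outside the span of the gene. Capitals mark AGGTCA or its complement TGACCT in Plin2, and the complement of ACGTG, the core letters of hypoxia response elements, in Ppard.
Pdk4 (chr6:5496279-5496528, minus strand): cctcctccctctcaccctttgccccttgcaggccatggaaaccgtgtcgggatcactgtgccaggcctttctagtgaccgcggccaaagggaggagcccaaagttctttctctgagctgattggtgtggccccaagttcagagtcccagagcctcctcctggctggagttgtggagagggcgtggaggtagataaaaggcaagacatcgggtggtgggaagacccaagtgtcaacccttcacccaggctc
Plin2 (chr4:86670218-86670309, minus strand): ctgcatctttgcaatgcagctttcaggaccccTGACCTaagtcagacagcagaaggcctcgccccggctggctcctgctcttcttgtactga
Ppard (chr17:28232504-28232753, plus strand): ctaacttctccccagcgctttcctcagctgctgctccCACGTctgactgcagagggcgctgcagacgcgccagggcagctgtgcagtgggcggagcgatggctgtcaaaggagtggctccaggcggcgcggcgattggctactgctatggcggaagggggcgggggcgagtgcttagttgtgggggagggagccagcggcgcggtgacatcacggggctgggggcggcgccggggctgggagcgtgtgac

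The 250 bases before the start sites were searched for 7 of the 9 genes, all but Angptl4 and Ppargc1b, on both strands. The PPAR element itself, AGGTCANAGGTCA, was in none of these windows and in 11 of 32851 promoters (0.033%), and the relaxed form AGGNCANAGGNCA was in none of them and in 111 promoters (0.338%). Its 6-letter unit AGGTCA, part of both longer motifs, is common, at 14.024% of all promoters. It stood in the Plin2 window, 218 to 213 bases before the start, in windows of Pparg (28 to 23 bases before the start and, at another start site, 9 to 4 bases before it), and in a window of Rxra in each orientation (87 to 82 and 48 to 43 bases before). ACGTG, found in 16.572% of promoters, stood in the windows of Ppard (213 to 209 bases before) and Ppargc1a (51 to 47 bases before). Pdk4 and Ppara held none of these motifs in these windows.

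The levels of the 9 genes spanned a wide range. The TPM values of the authors, which account for transcript length, placed Plin2 highest, at 144 to 475 TPM over the 16 tumors. Ppargc1a followed at 22.6 to 82.7 TPM, Ppard at 38.1 to 51.1 TPM and Rxra at 19.3 to 30.9 TPM, and the range of Ppargc1a overlapped with both others, while every Ppard value was above every Rxra value. Angptl4 ranged from 3.03 to 92.7 TPM and overlapped with all 3 of these genes. Pparg (0.369 to 5.54 TPM), Ppargc1b (0.694 to 4.03 TPM) and Pdk4 (0 to 9.68 TPM) had lower means and overlapped with each other and with Angptl4. Ppara was at 0.0967 to 0.551 TPM, from 21 to 75 counts per tumor, so Ppard was the most abundant of the 3 receptors in every tumor.

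**Figure D1:**
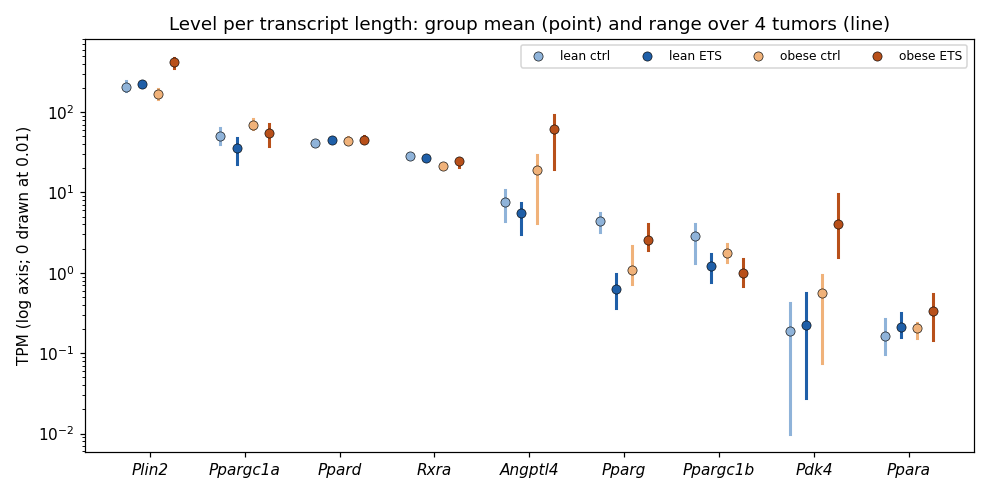
Levels per transcript length (TPM, log axis) of the 9 genes, ordered by their mean, in the 4 groups. Points are group means and lines span the lowest to the highest of 4 tumors. Plin2 is above the other genes, at 144 to 475 TPM, and Ppara lies below 0.551 TPM in every tumor.

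After ETS, 4 of the 8 genes tested were called in lean tumors, Ppard and Plin2 higher and Pparg and Ppargc1b lower. The share of all tested genes called in this comparison was 43.8% (21.0% higher and 22.8% lower), so a count of 4 is near the background. In obese tumors 5 of 8 were called, Pparg, Rxra, Angptl4 and Plin2 higher and Ppargc1b lower, where 40.2% of all genes were called (21.2% higher and 19.0% lower). The effects of ETS in lean and in obese tumors differed for 2 of 8 genes, Pparg and Plin2, against 16.4% of all genes (6.35% with a higher value in lean tumors and 10.1% with a lower one). In the exact permutation test of log2(CPM + 0.5), which uses only the 8 tumors compared, Ppard and Pparg in lean tumors and Plin2 in obese tumors were at p = 0.0286, the smallest possible, and the other calls within a host were at 0.0571 or 0.0857. Without the 5 tumors with muscle markers, 1 gene was called in lean tumors (Pparg), 3 in obese tumors (Pparg, Angptl4 and Plin2) and 1 in the difference (Pparg). That fit leaves 2 lean tumors before therapy, 2 lean tumors after ETS and 3 obese tumors after ETS.

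**Figure D2:**
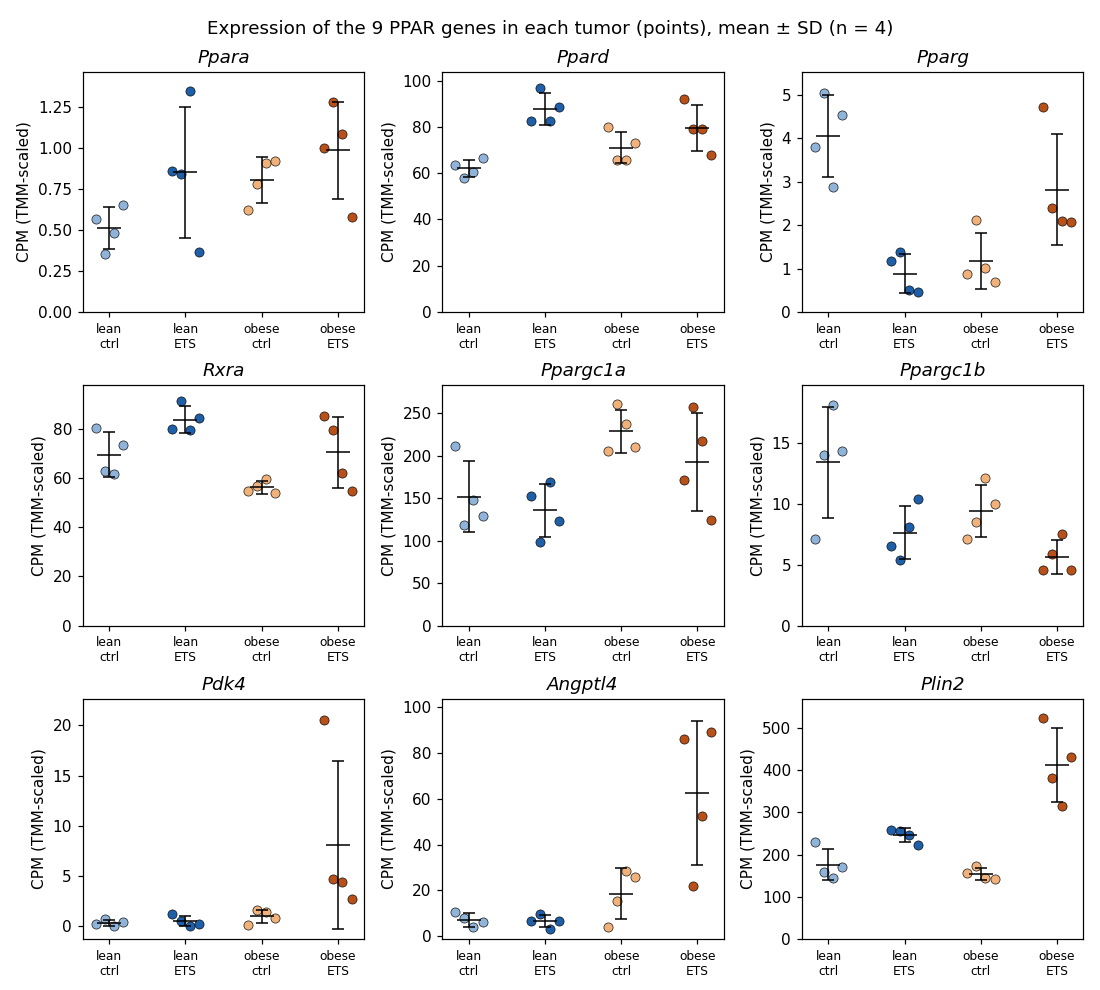
CPM of each of the 9 genes in each tumor (points, 4 per group), with the mean and SD as bars. Every axis starts at or just below 0. Pparg is high in lean tumors before therapy (2.88 to 5.04 CPM) and in obese tumors after ETS (2.08 to 4.71 CPM), and Plin2, Pdk4 and Angptl4 are highest in obese tumors after ETS.

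Pparg (gene ID 19016, chr6:115360879-115490404 in GRCm38.p6) changed in opposite directions in the 2 hosts. In lean tumors it was at 3.80, 5.04, 2.88 and 4.54 CPM before therapy and at 1.18, 1.38, 0.519 and 0.473 CPM after ETS. Every lean tumor after ETS was thus below every lean tumor before therapy, and the log2 fold change was -2.20 (SE 0.43, adjusted p = 0.000949, edgeR). In obese tumors it was at 0.868, 2.11, 1.005 and 0.689 CPM before therapy and at 4.71, 2.41, 2.09 and 2.08 CPM after ETS. The groups overlapped by obese tumor 2 before therapy, which was above the lowest of the treated tumors, and the log2 fold change was 1.27 (SE 0.42, adjusted p = 0.0242). The difference of the effects, lean minus obese, was -3.47 (SE 0.59, adjusted p = 0.00110), and the fold changes kept these directions under every alternative run. In obese tumors the call was lost without obese tumor 1, 3 or 4 before therapy or obese tumor 1 after ETS, with adjusted p up to 0.0902 without the last.

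**Figure D3:**
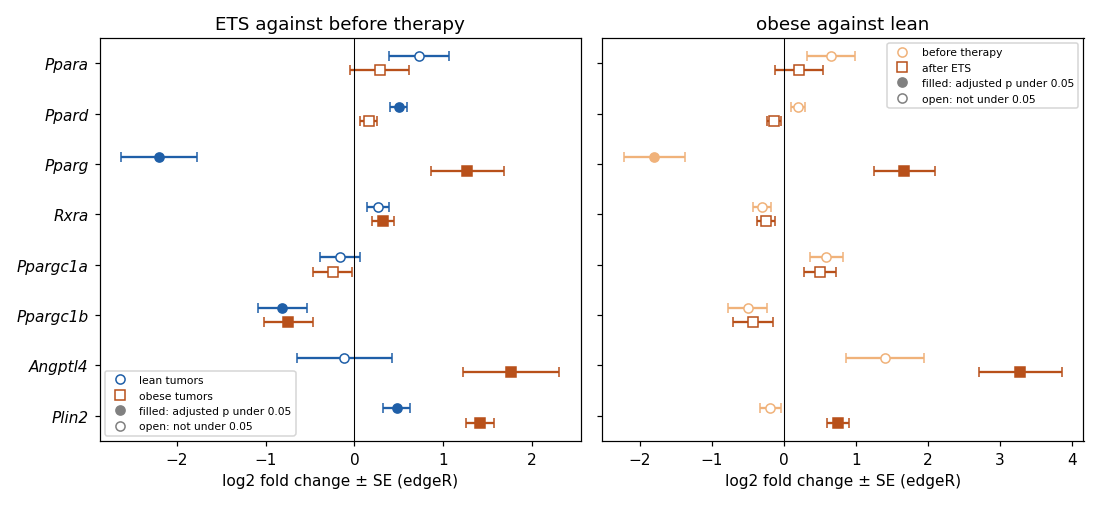
Log2 fold changes (edgeR, points with SE) of the 8 genes tested, after ETS against before therapy in lean and obese tumors (left) and in obese against lean tumors before therapy and after ETS (right). Filled symbols have an adjusted p under 0.05. Pparg is at -2.20 in lean and 1.27 in obese tumors, and Angptl4 is at 3.28 in obese against lean tumors after ETS.

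Macrophage and fibroblast markers moved with Pparg. The 10 macrophage markers summed to 416 to 1332 CPM in lean tumors before therapy, 50.8 to 424 after ETS, 43.6 to 259 in obese tumors before therapy and 359 to 1072 after ETS. After ETS 7 of these 10 genes were called lower in the lean host, where 22.8% of all genes were lower. In the obese host 7 were called higher, where 21.2% of all genes were higher. None of the 10 was at 0 in any group. The 7 fibroblast markers summed to 531 to 2189, 97.1 to 599, 95.5 to 605 and 611 to 5692 CPM in the same order of groups. In lean tumors 4 of 7 were called lower and in obese tumors 7 of 7 higher, against the same shares of all genes. Both are marker lists of cells that the host could supply, and their part in the Pparg result was not tested. Over the 16 tumors the genes with the profile most like Pparg were Tgm2 (Pearson r = 0.957 of log2 CPM) and March1 (r = 0.941), among 13314 genes with a mean of at least 1 CPM.

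**Figure D4:**
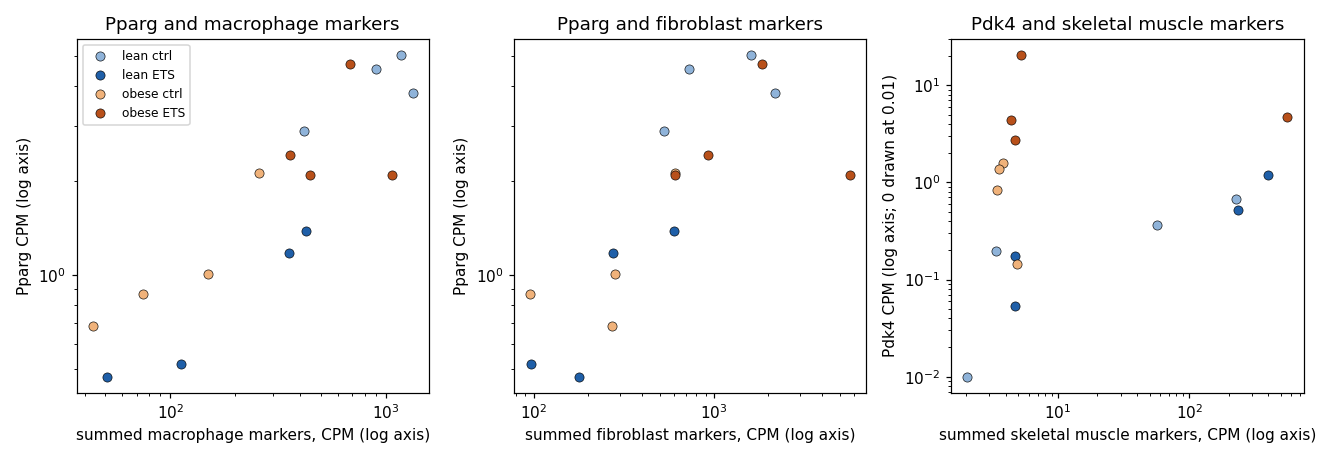
Pparg CPM against the summed CPM of 10 macrophage markers (left) and 7 fibroblast markers (middle), and Pdk4 CPM against 10 skeletal muscle markers (right), one point per tumor and log axes throughout, with the Pdk4 value of 0 drawn at 0.01. Tumors with low macrophage sums have low Pparg, down to 0.473 CPM, and the highest Pdk4 (20.5 CPM) is in a tumor with a muscle sum of 5.26 CPM.

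Ppard (gene ID 19015, chr17:28232754-28301469) rose in lean tumors. Its level there was 63.7, 57.8, 60.4 and 66.4 CPM before therapy and 82.7, 96.9, 82.4 and 88.7 CPM after ETS, with no overlap. The log2 fold change was 0.50 (SE 0.10, adjusted p = 0.000909, edgeR), about 1.41 times in the group means. In obese tumors it was at 79.8, 65.9, 65.5 and 73.1 CPM before therapy and 92.1, 79.1, 79.3 and 68.0 CPM after ETS, which overlapped, and the fold change of 0.16 (SE 0.10) was not called (adjusted p = 0.187). The difference of the effects of ETS was 0.33 (SE 0.14) and was not called (adjusted p = 0.107), so that the effect is not shown to differ between hosts. On the TPM scale the lean effect was 0.12 and not called (adjusted p = 0.264 with limma on log2(TPM + 1)). That scaling moved the median of all genes in lean tumors from -0.01 to -0.28 and the share of higher calls from 48.0% to 15.7%, and in the difference of effects from 0.05 to -0.16 and from 38.7% to 9.24%.

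Ppara (gene ID 19013, chr15:85734910-85806851), the receptor best known from liver, was near the lower end of detection. Counts were 34, 23, 31 and 41 in lean tumors before therapy and 48, 42, 75 and 21 after ETS. Obese tumors had 30, 39, 54 and 52 counts before therapy and 55, 62, 68 and 33 after ETS. All groups overlapped, and no comparison was called, with log2 fold changes of 0.73 (SE 0.34, adjusted p = 0.0904, edgeR) in lean and 0.28 (SE 0.33, adjusted p = 0.522) in obese tumors. Without lean tumor 4 after ETS, the lowest of its group, the lean value was 0.98 with an adjusted p of 0.0164. With all tumors the lean unadjusted p was 0.0463.

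Rxra (gene ID 20181, chr2:27676445-27763319), which pairs with all 3 receptors, was called higher with ETS in obese tumors, narrowly. It lay between 53.9 and 59.7 CPM in obese tumors before therapy and was at 85.2, 79.8, 62.2 and 54.9 CPM after ETS, the last of these within the range before therapy. The fold change was 0.33 (SE 0.12, adjusted p = 0.0490, edgeR), and the call was lost under 18 of the 26 alternatives. They include the removal of any obese tumor before therapy, of obese tumor 1 or 2 after ETS, of lean tumor 2 or 4 before therapy and of lean tumor 3 or 4 after ETS, with adjusted p from 0.0537 to 0.141. In lean tumors Rxra went from 61.6 to 80.4 CPM before therapy to 79.9 to 91.3 CPM after ETS, a log2 fold change of 0.27 that was not called (adjusted p = 0.0915) and was -0.09 with limma on log2(TPM + 1). Without lean tumor 1 before therapy it was 0.35 and called (adjusted p = 0.0427).

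Among the coactivators, Ppargc1b (gene ID 170826, chromosome 18) fell in both hosts. In lean tumors it was at 7.12, 14.03, 18.1 and 14.4 CPM before therapy and at 6.58, 5.41, 8.13 and 10.5 CPM after ETS. In obese tumors it was at 7.09, 8.53, 12.1 and 10.01 CPM before therapy and at 4.59, 5.89, 7.54 and 4.55 CPM after ETS. The groups overlapped in each host, through lean tumor 1 and obese tumor 1 before therapy. The fold changes were -0.81 (SE 0.28, adjusted p = 0.0271, edgeR) and -0.74 (SE 0.28, adjusted p = 0.0443). The lean call was lost without lean tumor 2, 3 or 4 before therapy or lean tumor 1 or 2 after ETS, with adjusted p from 0.0556 to 0.0972. In obese tumors the call was lost without obese tumor 2, 3 or 4 before therapy, obese tumor 1, 2 or 4 after ETS, lean tumor 2 or 4 before therapy or lean tumor 1 or 3 after ETS, with adjusted p from 0.0532 to 0.134.

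Ppargc1a (gene ID 19017, chr5:51454249-52115853) had no called change. Lean tumors held 119 to 211 CPM before therapy and 98.7 to 169 CPM after ETS, and obese tumors 205 to 261 and 125 to 257 CPM. The fold changes of -0.16 (SE 0.22, adjusted p = 0.575, edgeR) and -0.25 (SE 0.22, adjusted p = 0.399) were close to their SE. At 22.6 TPM or more it was the more abundant of the coactivators in every tumor, as Ppargc1b reached at most 4.03 TPM. Its profile over the 16 tumors was like that of Bdh1 (r = 0.862), and that of Ppargc1b most like those of Spen (r = 0.948) and Zfp950 (r = 0.930).

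Of the targets, Plin2 (gene ID 11520, chr4:86626910-86670217) rose most firmly. In obese tumors it was at 158, 174, 145 and 142 CPM before therapy and at 523, 382, 315 and 431 CPM after ETS. No tumor after ETS came near those before therapy, and the fold change was 1.42 (SE 0.15, adjusted p = 2.58e-05, edgeR), or 2.67 times in the group means. In lean tumors Plin2 was at 230, 159, 145 and 171 CPM before therapy and at 259, 256, 247 and 222 CPM after ETS. Lean tumor 1 before therapy exceeded tumor 4 after ETS, and the fold change was 0.48 (SE 0.15, adjusted p = 0.0189). It was 0.12 and not called on the TPM scale, and not called without lean tumor 2 (adjusted p = 0.0555) or 3 (0.0642) before therapy. The lean effect was smaller than the obese one by 0.94 (log2 difference -0.94, SE 0.21, adjusted p = 0.00764), and the obese rise was called under every alternative run.

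Angptl4 (gene ID 57875, chr17:33774900-33781575) rose in obese tumors and had no called change in lean ones. Lean tumors were at 10.6, 7.67, 3.68 and 5.86 CPM before therapy and at 6.36, 9.59, 3.17 and 6.64 CPM after ETS, and the fold change was -0.11 (SE 0.54, adjusted p = 0.880, edgeR). Obese tumors were at 3.99, 15.2, 28.5 and 25.9 CPM before therapy and at 86.3, 22.0, 52.6 and 89.3 CPM after ETS. Obese tumor 2 after ETS lay among the tumors before therapy, and the other 3 lay above them. The fold change was 1.76 (SE 0.54, adjusted p = 0.0171) and was called under every alternative run. The exact two-sided permutation test of log2(CPM + 0.5), which uses only these 8 tumors, gave p = 0.0857. The difference of the effects was -1.88 (SE 0.75) and was not called (adjusted p = 0.104), with adjusted p between 0.0516 and 0.172 over the alternatives.

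Pdk4 (gene ID 27273, chr6:5483351-5496278) had 12, 44, 0 and 23 counts in lean tumors before therapy and 67, 26, 3 and 10 after ETS. Obese tumors had 7, 80, 82 and 47 counts before therapy and 1132, 227, 278 and 156 after ETS. Every obese tumor after ETS was above every other tumor of the study, with the highest, 20.5 CPM, far from the other 3 (2.73 to 4.67 CPM). On the log2(CPM + 0.5) scale, which understates changes of low genes, the effect in obese tumors was 2.25 (exact two-sided permutation test, p = 0.0286, the smallest value that 4 against 4 tumors allow). In lean tumors it was 0.21 (exact permutation p = 0.686), and the difference of the effects was -2.04 (exact permutation p = 0.136 over 4900 arrangements). For the difference, host labels were permuted within each treatment. That p thus refers to hosts that are alike before therapy and after ETS, and not to equal effects alone. With the filter lifted, edgeR gave a log2 fold change of 3.01 in obese tumors with an adjusted p of 0.0390. The p of the permutation test was 0.0571 without obese tumor 1 or 4 before therapy, with effects of 1.89 and 2.24.

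Muscle RNA stood beside the Pdk4 values of lean tumors. The 4 lean tumors with muscle markers over 50 CPM had the 4 highest Pdk4 levels of the lean host, 0.365 to 1.19 CPM, and the other 4 were at 0 to 0.199 CPM. In obese tumors after ETS the muscle marker sums were 5.26, 561, 4.40 and 4.67 CPM, and without the tumor at 561 CPM the obese effect was 2.36 (exact permutation p = 0.0286). The summed adipocyte markers also went up with ETS in obese tumors (median 46.4 to 132 CPM), as did Pdk4, Angptl4 and Plin2. In lean tumors the median sum went down, from 24.1 to 16.8 CPM, while Plin2 was called higher (0.48, adjusted p = 0.0189, edgeR). Angptl4 was at -0.11 in lean tumors, not called, and Pdk4 at 0.21 on the log2(CPM + 0.5) scale. The 8 markers summed to 16.2 to 35.9 CPM (before) and 11.4 to 26.6 CPM (after ETS) in the lean host, and to 17.7 to 114 CPM and 72.8 to 275 CPM in obese tumors. Adipoq, a defining marker, was at most 5.44 CPM in any tumor, and Fabp4, which endothelial cells and macrophages also express, made up most of the sum. Fabp4 and Cidec, another of these markers, are also in the list of other PPAR targets below. The sum is thus not a measure separate from PPAR targets. The profile of Pdk4 was most like those of Ctla2b (r = 0.944) and Fabp4 (r = 0.936), that of Angptl4 like Kcna5 (r = 0.928) and Itgb5 (r = 0.914), and that of Plin2 like Serinc3 (r = 0.956) and Cyp4b1 (r = 0.955). The 7 endothelial markers summed to 148 to 177 CPM before therapy and 132 to 154 CPM after ETS in lean tumors, and to 112 to 148 and 167 to 354 CPM in obese tumors. Of these 7, 6 were called higher with ETS in obese tumors, where 21.2% of all genes were higher. The median there was 1.16, against 0.01 over all genes. In lean tumors 1 was called lower, where 22.8% of all genes were lower. The effects differed for 5, against 16.4% of all genes (10.1% with a lower value in lean tumors). None of the 7 was at 0 in any group. The part of fat, vessel or muscle cells in these results was not tested.

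Before therapy, obese tumors differed from lean ones in 1 of the 8 genes tested, Pparg, against 26.4% of all genes (13.5% higher and 12.9% lower). Its log2 fold change was -1.80 (SE 0.42, adjusted p = 0.00528, edgeR), with all 4 obese tumors below the lean ones. Angptl4 was at 1.40 (SE 0.54, adjusted p = 0.0662), Ppargc1a at 0.59 (SE 0.22, adjusted p = 0.0625) and Rxra at -0.31 (SE 0.12, adjusted p = 0.0827), none of them called here, and all 3 called with DESeq2. Without obese tumor 1 before therapy, the lowest for Angptl4 at 3.99 CPM, its value was 1.74 with an adjusted p of 0.0140. Without lean tumor 1 before therapy, the highest for Ppargc1a, its value was 0.79 (adjusted p = 0.0162) and Ppargc1b was called at -0.72 (adjusted p = 0.0433). Rxra was called without obese tumor 1 or 4 after ETS, Ppargc1a without obese tumor 2 or 4 after ETS and Angptl4 without obese tumor 2 after ETS, tumors that entered this comparison only through the shared estimate of the spread. Without the 5 tumors with muscle markers, no gene was called (adjusted p for Pparg = 0.0554).

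After ETS, 3 of the 8 genes tested were higher in obese tumors, Angptl4, Pparg and Plin2, and none was lower, where 5.58% of all genes were called (3.28% higher and 2.30% lower). Of these 3, Angptl4 had the largest fold change, 3.28 (SE 0.57, adjusted p = 0.00944, edgeR), or 9.72 times in the group means. Pparg was at 1.67 (SE 0.42, adjusted p = 0.0356) and Plin2 at 0.75 (SE 0.15, adjusted p = 0.0166). For each of these genes, and for Pdk4, every obese tumor lay above every lean tumor. The group means of Pdk4, which was not in the edgeR fit, differed by more than those of Angptl4, 16.7 times, and its difference was 2.85 on the compressed log2(CPM + 0.5) scale (exact permutation p = 0.0286). The Pparg call was lost without lean tumor 3 or 4 or obese tumor 1 or 4 after ETS (adjusted p from 0.0555 to 0.0961), and that of Plin2 without lean tumor 4 after ETS (0.0555). Without the 5 tumors with muscle markers, none of the 3 was called, with fold changes of 3.93 (adjusted p = 0.0675), 2.55 (0.0689) and 0.83 (0.0943). The comparisons in this and the preceding paragraphs share tumors and are not independent of each other.

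A list of 36 other known PPAR targets, mostly enzymes and carriers of fatty acids, was read beside the 3 target genes, and 26 of them were tested. In lean tumors 11 rose (42.3%) and 3 fell (11.5%), where 21.0% of all genes rose and 22.8% fell. The median log2 fold change was 0.32, against -0.01 over all genes tested. In obese tumors 17 rose (65.4%) and 1 fell (3.85%), where 21.2% of all genes rose and 19.0% fell. The median was 0.52, against 0.01 over all genes. With limma on log2(TPM + 1) the lean counts were 8 and 9 and the median -0.05, at a median of -0.28 over all genes. The obese counts were 15 and 1. On that scale 8632 of 16209 genes were called in lean tumors, 15.7% of them higher, and 5905 in obese tumors, 43.6% of them higher. In the fit without muscle-bearing tumors, the risers and fallers were 5 and 1 for lean tumors and 13 and 1 for obese tumors. The medians in that fit were 0.35 (lean) and 0.51 (obese), against -0.03 and 0.02 over all genes. The largest rises were of Fabp3, a fatty acid carrier (2.04, SE 0.33), and Gpd1, a glycerol phosphate dehydrogenase (1.70, SE 0.28), in lean tumors. In obese tumors they were of Aqp7, a glycerol channel (2.13, SE 0.64), and the fatty acid transporter Cd36 (1.82, SE 0.55). The falls were of Cpt1b (-3.55, SE 0.94), the muscle form of the carnitine transferase, Lpl (-2.74, SE 0.67), the lipase that Angptl4 inhibits, and Ucp2 (-1.25), a mitochondrial carrier, in lean tumors, and of Acsl3 (-0.76, SE 0.19) in obese tumors.

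**Figure D5:**
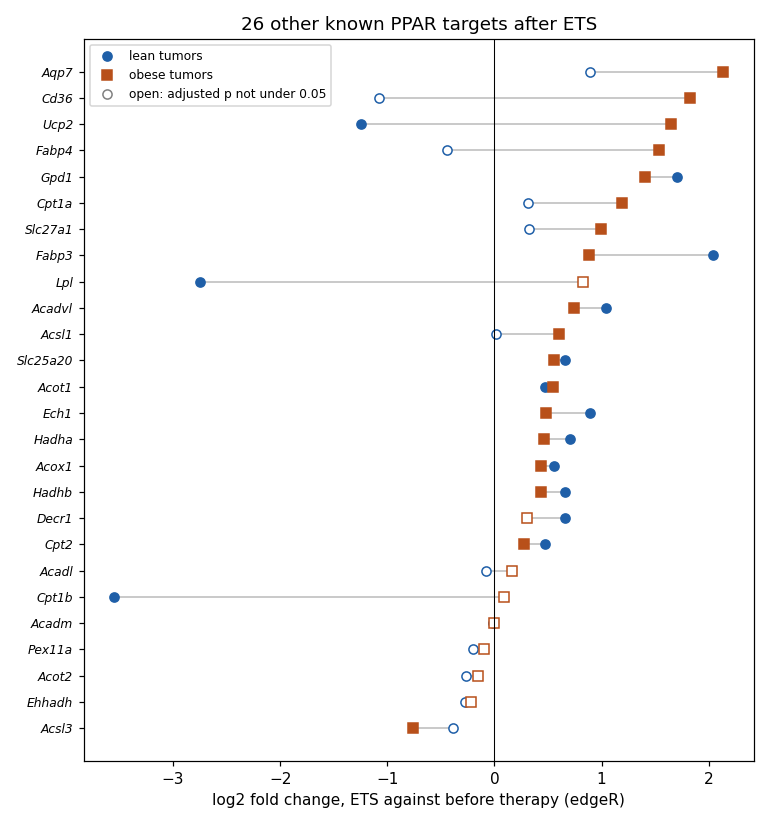
Log2 fold change after ETS (edgeR) of the 26 other PPAR targets tested, in lean and obese tumors, sorted by the obese value. Filled symbols have an adjusted p under 0.05. In obese tumors 17 rose and Acsl3 fell, where 21.2% of all genes rose and 19.0% fell. Cd36, Ucp2 and Lpl have negative values in lean tumors and positive ones in obese tumors.

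Cd36 and Lpl had the largest called differences between the hosts in this list, of 6 genes called, all with the lower value in lean tumors (2 called without the 5 tumors with muscle markers). The 6 were 23.1% of the targets tested, where 16.4% of all genes were called and 10.1% had the lower value in lean tumors. For Lpl the difference of the effects was -3.57 (SE 0.92, adjusted p = 0.0148, edgeR) and for Cd36 -2.90 (SE 0.78, adjusted p = 0.0187). Lpl went from 33.5 ± 8.92 to 5.01 ± 2.72 CPM in the lean host, and in the obese host from 12.5 ± 14.9 to 22.2 ± 5.45 CPM (mean ± SD, n = 4). Cd36 was at 25.7 ± 10.6 and 12.2 ± 6.44 CPM in lean tumors and at 24.8 ± 16.9 and 87.7 ± 60.9 CPM in obese tumors. Macrophages express both genes, and the part of such cells in these differences was not tested. Before therapy the mean of Cd36 was close in the hosts, and that of Lpl was 33.5 CPM in lean and 12.5 CPM in obese tumors. The macrophage sums then had a median of 1039 CPM in lean and 112 CPM in obese tumors. Before therapy, 7 targets (26.9%) were higher in obese tumors and 1 (3.85%) was lower, where 13.5% of all genes were higher and 12.9% lower. After ETS 6 (23.1%) were higher and none lower, where the shares of all genes were 3.28% and 2.30%. Without these 5 tumors the counts were 1 and 1 before therapy and none after ETS.

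Genes of the same families as the targets behaved in several ways. Pdk2, another pyruvate dehydrogenase kinase, rose from 2.27 ± 0.306 to 10.7 ± 1.08 CPM in lean tumors (log2 fold change 2.24, SE 0.25) and from 3.34 ± 1.01 to 11.8 ± 4.05 CPM in obese tumors (1.82, SE 0.25). In lean tumors Pdk3 (0.75, SE 0.15) and Pdk1 (0.43) were called higher, and in obese tumors they were at -0.07 and -0.15, not called. The difference of the Pdk3 effects was called, at 0.82 (SE 0.21, adjusted p = 0.0161, edgeR), and so was that of Angptl2, a secreted relative of Angptl4, at -0.61 (SE 0.19, adjusted p = 0.0396), which rose in obese tumors (0.88, SE 0.13). Plin3, another lipid droplet protein, rose in lean (0.55) and in obese tumors (0.58). Angptl6 was not called in either host, at 0.25 in lean and -0.25 in obese tumors, and its mean was 2.06 CPM in lean and 9.35 CPM in obese tumors before therapy (log2 fold change 2.18, called). In all, 4 of 6 tested family members rose in the lean host (66.7%, against 21.0% of all genes) and 3 in the obese host (against 21.2%), and none fell. On the TPM scale 1 rose in lean and 3 in obese tumors, and without the 5 tumors with muscle markers 1 and 2. The TPM scale called 8632 of 16209 genes in lean tumors, 15.7% of them higher, and 5905 in obese tumors, 43.6% of them higher.

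The other 6 family members had a count of 0 in at least 1 tumor. Plin1 and Plin4, droplet proteins of fat cells, were at most 0.315 and 1.16 CPM in lean tumors and reached 7.04 and 17.003 CPM in obese tumors. Plin5 was at most 0.308 CPM, Angptl1 at most 0.501 CPM and Angptl7 at most 0.180 CPM in any tumor. Reads of such close relatives could be shared or split in the counting.

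Of 17 partners and coregulators, 15 were tested. The lean host had 2 that rose (13.3%) and 8 that fell (53.3%), where 21.0% of all genes rose and 22.8% fell, with a median of -0.38 against -0.01 over all genes. The obese host had 2 that rose (13.3%) and 5 that fell (33.3%), where 21.2% of all genes rose and 19.0% fell, with a median of -0.22 against 0.01. When the 5 tumors with muscle markers were left out, the counts up and down were 1 and 1 (lean) and 2 and 2 (obese). Lpin1, a phosphatidate phosphatase that also acts as a coactivator, rose in lean (1.78, SE 0.15) and obese tumors (0.72, SE 0.15), and its effects differed by 1.06 (SE 0.21, adjusted p = 0.00255, edgeR). Prdm16, a coregulator known from brown fat, rose in lean tumors (0.41, SE 0.10) and fell in obese tumors (-0.54, SE 0.10), a difference of 0.95 (SE 0.15, adjusted p = 0.000544). Med1, a subunit of the Mediator complex, fell in lean (-0.99, SE 0.23) and obese tumors (-0.74, SE 0.23), and the coactivator Ncoa3 fell in lean tumors (-0.95, SE 0.14). The difference of the effects was -0.88 (SE 0.22, adjusted p = 0.0127) for the corepressor Nrip1 and -0.62 (SE 0.20, adjusted p = 0.0427) for Ncoa3. Before therapy 3 were higher (20.0%) and 1 was lower (6.67%) in obese tumors, against 13.5% and 12.9% of all genes. After ETS none was called by edgeR, where 5.58% of all genes were, and 2 had an unadjusted p under 0.05.

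Genes through which PGC-1 proteins act on mitochondria, 9 of 11 tested, were called in each direction, with 3 higher and 3 lower in lean tumors (median -0.11) and 1 higher and 5 lower in obese tumors (median -0.37). As shares, the lean counts were 33.3% up and 33.3% down, against 21.0% and 22.8% of all genes (median -0.01). The obese counts were 11.1% up and 55.6% down, against 21.2% and 19.0% of all genes (median 0.01). Esrra, an estrogen-related receptor, rose in both (0.99, SE 0.15, and 0.42, SE 0.15), and Tfb2m, a mitochondrial transcription factor, rose in lean tumors (0.46, SE 0.10). The nuclear factor Nrf1 fell in both (-0.46, SE 0.09, and -0.59, SE 0.09), as did Gabpb1 (-0.30, SE 0.10, and -0.55, SE 0.10). On the TPM scale the counts up and down were 1 and 6 (lean) and 1 and 5 (obese). That scale called 8632 of 16209 genes in lean tumors, 15.7% of them higher, and 5905 in obese tumors, 43.6% of them higher. Leaving out the muscle-bearing tumors left 1 riser in lean tumors and 4 fallers in obese ones. No difference of the effects was called in this list by edgeR, where 3 genes had an unadjusted p under 0.05, and 5 of the 9 genes were higher in obese tumors before therapy (55.6%, against 13.5% of all genes). After ETS none of the 9 was called, and none had an unadjusted p under 0.05.

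Angptl4 and Pdk4 respond to signals other than PPARs, and lists of those responses were read beside them. Of 19 hypoxia genes, 7 rose (36.8%) and 2 fell (10.5%) in lean tumors, where 21.0% of all genes rose and 22.8% fell. The median was 0.41, against -0.01 over all genes. In obese tumors none was called by edgeR (3 at an unadjusted p under 0.05), where 40.2% of all genes were. Before therapy 11 were higher (57.9%) and 2 lower (10.5%) in obese tumors, against 13.5% and 12.9% of all genes, with a median of 1.04 against 0.02. After ETS none was called between the hosts, and 5 had an unadjusted p under 0.05. On the TPM scale the lean counts were 1 up and 3 down, and 2 were down in obese tumors. Over all genes that scale gave 8632 calls of 16209 in lean tumors, 15.7% of them higher, and 5905 in obese tumors, 43.6% higher. In the fit of the 11 tumors without muscle markers, none was called in either host and 6 were higher in obese tumors before therapy. Car9, a carbonic anhydrase, rose by 1.13 (SE 0.29) and Ero1l by 0.92 (SE 0.30) in lean tumors, and Pfkfb4 (-0.75, SE 0.21) and Hk2 (-0.49, SE 0.17) fell. The effects differed for 6 genes, 4 higher in lean tumors (21.1%) and 2 lower (10.5%), against 6.35% and 10.1% of all genes. Among them were Ankrd37 (1.77, SE 0.54) and Ddit4 (1.51, SE 0.41), higher in lean tumors, and Pfkfb4 (-0.99, SE 0.30) and Pfkfb3 (-0.80, SE 0.25), lower. Of 9 glucocorticoid-responsive genes tested, 2 were called in lean and 1 in obese tumors, shares below the 43.8% and 40.2% of all genes. These were Mt1 (1.16, SE 0.19) and Tsc22d3 (-0.98, SE 0.28) in lean tumors and Sgk1 (1.54, SE 0.32) in obese tumors. The difference of the effects was 0.94 (SE 0.26) for Mt1, -2.23 (SE 0.45) for Sgk1 and -1.20 (SE 0.40) for Tsc22d3, all called. In that comparison 16.4% of all genes were called. After ETS 3 of the 9 genes (33.3%) were higher in obese tumors, against 3.28% of all genes. Before therapy 2 were higher (22.2%, against 13.5%). With the muscle-bearing tumors left out, 1 of the 9 rose in each host and none was called between the hosts before therapy or after ETS. Then 1 of the 9 had a called difference of the effects, with the lower value in lean tumors.

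The remaining receptors and partner had these closest profiles over the 16 tumors. Ppara was most like Cs (r = 0.824) and Gm9755 (r = 0.808), Ppard like Neu1 (r = 0.967) and Tsc22d4 (r = 0.955), and Rxra like Glmp (r = 0.949) and Tmem208 (r = 0.944). The tumors of a host and treatment share these values, so the coefficients describe group differences as well as differences within groups.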

How the data were processed

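RNA of 16 B16F10 tumors, 4 in each of 4 groups named by the labels, was sequenced by the authors as stranded poly(A) libraries. Per the labels and the study's methods, the reads were demultiplexed with bcl2fastq 2.20.0, trimmed with Trimmomatic, aligned to mm10 with HISAT2 2.1.0 and quantified per gene with StringTie 2.1.3b. The counts deposited by the authors are raw whole numbers for each gene. Levels were compared between genes on the TPM values the authors deposited, which also served as an alternative. The FPKM values the authors deposited (16 columns) stayed unused. Whether counting used the strand is not given in the sources used here.

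A 0 in any tumor removed a gene (29568 of 45777). TMM scaling and edgeR 4.0.16 (R 4.3.3) were applied to all 16 tumors with a mean per group, with Benjamini-Hochberg adjustment. The study's methods use edgeR's exact test on counts with 1 added, run here as an alternative. Pdk4 was compared by exact two-sided permutation tests of log2(CPM + 0.5), also given for the called members. For the difference of the effects these tests permuted host labels within each treatment. Alternatives were other size factors and filters, DESeq2 1.42.0, limma 3.58.1 on log2(TPM + 1) and log2(TPM + 0.1), a fit of only the groups compared, a replicate block and leaving out each tumor. The scripts were tested on simulated data. Total counts were 47199949 to 61655287 per tumor. Coordinates and promoters come from RefSeq tables of GRCm38.p6.

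The 9 genes, the gene lists and the tests were chosen with earlier results of these data known. The text names all 9 genes, every family member of the targets, for each list the 2 largest called rises and falls in lean tumors, obese tumors and the difference, and the 2 genes most correlated with each of the 9. Other named genes were chosen after their values were seen. The values of some genes that this rule names are not reported here. Tumors of a group always differed by more than sampling noise.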

Additional observations from a re-analysis of the deposited data

Results flagged for a closer look

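Within groups, 36 sets of 4 tumors (9 genes in 4 groups) were examined for a tumor far from the other 3, and 2 were found. For normally distributed values chance gives about 1 in 20 sets, so a count of 2 in 36 is near what chance gives. The CPM values were not transformed for this check. Both were obese tumor 1 after ETS, with Pdk4 at 20.5 CPM and Pparg at 4.71 CPM, the highest of their group. That tumor had a macrophage marker sum of 683 CPM, an endothelial sum of 354 CPM and an adipocyte sum of 275 CPM, the last 2 of which were the highest of all tumors.

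The effect of ETS differed between lean and obese tumors (lean minus obese, log2 scale, edgeR, adjusted p under 0.05) for Pparg at -3.47 and Plin2 at -0.94. In the pathway lists it differed for Prdm16 at 0.95, Lpin1 at 1.06, Nrip1 at -0.88, Ncoa3 at -0.62, Lpl at -3.57, Cd36 at -2.90, Pdk3 at 0.82, Angptl2 at -0.61, Ddit4 at 1.51, Ankrd37 at 1.77, Pfkfb4 at -0.99, Pfkfb3 at -0.80, Mt1 at 0.94, Sgk1 at -2.23 and Tsc22d3 at -1.20.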

How the results depend on the processing

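Of 1134 recomputed fold changes of the 9 genes, 1017 kept their direction and their side of the threshold, 69 lost the call, 23 gained it and 25 changed sign, all of the last for effects that were not called. The number of genes called in lean tumors was 4, and 2 with limma on log2(TPM + 1) or log2(TPM + 0.1) and 2 to 5 when a tumor was left out. In obese tumors it was 5, and 3 with either TPM scale and 2 to 5 when a tumor was left out. For the difference of effects it was 2 in each of these leave-one-out fits. Between hosts before therapy it was 1, and 4 with the exact test or DESeq2, 2 with either TPM scale, 3 with only the groups compared and 1 to 3 when a tumor was left out. After ETS it was 3, and 1 with only the groups compared and 1 to 3 when a tumor was left out. Without the 5 tumors with muscle markers the counts were 1 (lean), 3 (obese), 1 (difference), 0 (before therapy) and 0 (after ETS). The share of all genes called in that smaller fit is not reported here. The replicate block gave 2 genes before therapy (Ppargc1a gained) and 4 in obese tumors (Rxra lost), and changed no other call. The labels do not say whether the numbers pair the tumors, and the values do not settle it. Deviations of same-numbered tumors correlated between -0.11 and 0.45, and 11 of 24 pairs exceeded 0.1. Tumors with different numbers were not compared in this way. Over all genes the block raised the number of calls in each comparison, from 7099 to 7754 in lean tumors and from 904 to 1683 between hosts after ETS.

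Signs changed on the TPM scales (pseudocount 1, then 0.1) for Rxra in lean tumors (-0.0894, -0.0923), Ppara in the difference (-0.0785, -0.147), Ppargc1a in the difference (-0.142, -0.148) and Ppard after ETS (0.0042 in each). When a tumor was left out, ranges crossed 0 in lean tumors for Ppargc1a (-0.286 to 0.0393), Angptl4 (-0.38 to 0.16) and Pdk4 (-0.10 to 0.45), in the difference for Ppargc1a (-0.10 to 0.28), Rxra (-0.187 to 0.0205) and Ppargc1b (-0.28 to 0.11), and after ETS for Ppara (-0.0439 to 0.517). Ppargc1b in the difference was 0.32 without the 5 tumors. The causes were not tested. The exact test and the fit of only the groups compared gave no difference of effects, and Pdk4 had no value there, with DESeq2 or with the block. Counts of 21 to 75 limit Ppara and counts of 0 to 1132 limit Pdk4.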
